A study of Mus musculus with 4 samples.

Results

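The genes described here encode the mouse chemosensory receptors: the olfactory receptors (symbols starting with Olfr), the vomeronasal receptors of types 1 and 2 (Vmn1r and Vmn2r), the trace amine-associated receptors (Taar) and the bitter taste receptors (Tas2r). They were chosen by symbol alone, from the annotated gene spans on the 19 autosomes of mm10, each extended by 1 kb on both sides. Of 2099 such genes, 1580 had 3 or more CpGs with data in every library and are the members measured: 1125 of 1420 Olfr, 201 of 372 Vmn1r, 206 of 251 Vmn2r, 16 of 16 Taar and 32 of 40 Tas2r genes. They stand among 42746 measured of 47042 autosomal gene spans, which leaves 41166 other gene spans to compare with. The genes not measured had 0 CpGs in at least one library (153 genes), or a lowest count of 1 CpG (140 genes) or 2 CpGs (226 genes).

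DNA methylation was measured by whole-genome bisulfite sequencing, in which unmethylated cytosines read as T and methylated ones as C. The DNA came from hippocampal microglia, the macrophages that live in brain tissue, of mice at postpartum week 3. Of the 4 libraries, 2 came from mice that had undergone fetal growth restriction, abbreviated FGR, and 2 from control mice, and all mice had the genotype Tmem119-tdTomato+/-, a fluorescent reporter at a microglial gene. How growth restriction was produced, whether a library came from 1 animal or a pool, and whether replicates were separate animals are details not given in the sources used here, so the spread between replicates may be technical. In the text, the 2 values of a group are those of replicate 1 and then replicate 2, "level" is methylated reads over all reads in percent, and a difference is the FGR mean minus the control mean in percentage points.

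The libraries differed in depth, with coverage summed over listed cytosines from 49563150 in FGR replicate 1 to 91762720 in FGR replicate 2. A read counts in these sums at every listed cytosine it covers, and no listed cytosine had under 5 reads. FGR replicate 1 stood lowest over other gene spans, at 75.5%, against 76.9% to 77.7% in the other 3 libraries, but at 79.1% against 79.2% to 79.6% over shared CpGs, which are those listed in all 4 libraries. Fixed marker genes were read as a check of the label. The 7 microglial genes had mean levels of 20.3% (Cx3cr1) to 64.8% (Spi1) with a median of 40.8%. Neuronal markers lay at 64.7% to 73.9%, oligodendrocyte markers at 79.4% to 83.5%, astrocyte markers at 53.5% to 77.7% and endothelial markers at 30.5% (Cldn5) to 82.4%. Omp, the marker of mature olfactory sensory neurons, was at 83.2%. Cnga4, the other olfactory marker listed, was at 66.0%, with 42.4% in FGR replicate 1. The microglial list thus had the lowest median, while Cldn5 and Gfap (53.5%) lay below its 2 highest genes and Snap25 (64.7%) below Spi1.

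Chemosensory receptors are G protein-coupled receptors of the nose, the vomeronasal organ and the tongue. Each olfactory sensory neuron transcribes a single receptor allele while the remaining receptor genes are kept in repressive chromatin, and most tissues outside the sensory organs use few of them. Most of the genes are short, often with the whole coding sequence in a single exon. The Vmn2r genes are longer, with a median extended span of 20.25 kb, against 2.948 kb for Olfr and 10.31 kb for other gene spans. The genes lie in large tandem clusters that grew by duplication. They mostly lack the CpG islands that keep the promoters of other genes free of methylation.

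The promoter sequences show that CpG poverty. RefSeq (GRCm38.p6, the assembly of mm10) gave windows of 250 bases before to 50 bases after the start for 1302 of the 2099 genes, 1307 windows in all. A member window held a median of 1 CpG, against 7 over all 31396 windows, and 31.0% of member windows held none, against 5.25% of all. At all 1523 listed CpGs inside member windows the reference letters were CG. The 6 windows printed here are those with most measured CpGs among the named genes, so they are richer in CpG than most. They are given 5′ to 3′ along the gene's strand, and capitals mark the CpGs. Olfr750 lies on the minus strand at chr14:51071393-51071692, Taar9 on the minus strand at chr10:24109485-24109784, Olfr222 on the minus strand at chr11:59571689-59571988, Taar2 on the plus strand at chr10:23938322-23938621, Vmn2r1 on the plus strand at chr3:64081392-64081691 and Tas2r138 on the minus strand at chr6:40613261-40613560.
Olfr750: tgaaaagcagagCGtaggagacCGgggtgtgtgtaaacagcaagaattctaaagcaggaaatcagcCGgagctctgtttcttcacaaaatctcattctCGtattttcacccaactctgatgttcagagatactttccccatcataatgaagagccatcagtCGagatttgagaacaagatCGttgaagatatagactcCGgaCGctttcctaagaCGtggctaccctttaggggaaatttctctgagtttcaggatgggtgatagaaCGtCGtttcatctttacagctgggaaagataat
Taar9: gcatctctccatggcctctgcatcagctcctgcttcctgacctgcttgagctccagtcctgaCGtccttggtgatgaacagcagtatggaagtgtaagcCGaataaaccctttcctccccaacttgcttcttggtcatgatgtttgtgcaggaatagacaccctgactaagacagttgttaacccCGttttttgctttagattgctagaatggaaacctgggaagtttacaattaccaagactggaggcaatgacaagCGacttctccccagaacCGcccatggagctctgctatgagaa
Olfr222: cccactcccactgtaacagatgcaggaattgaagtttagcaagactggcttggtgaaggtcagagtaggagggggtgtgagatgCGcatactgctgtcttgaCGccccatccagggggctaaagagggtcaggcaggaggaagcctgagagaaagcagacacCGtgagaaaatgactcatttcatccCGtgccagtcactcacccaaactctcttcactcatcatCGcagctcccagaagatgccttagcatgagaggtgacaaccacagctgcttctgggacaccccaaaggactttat
Taar2: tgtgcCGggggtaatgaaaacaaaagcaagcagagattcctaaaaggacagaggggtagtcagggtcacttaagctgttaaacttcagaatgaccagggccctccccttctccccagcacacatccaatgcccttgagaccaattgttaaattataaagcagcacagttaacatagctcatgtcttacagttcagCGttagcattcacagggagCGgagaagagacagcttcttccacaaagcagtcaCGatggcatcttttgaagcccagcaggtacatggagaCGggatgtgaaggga
Vmn2r1: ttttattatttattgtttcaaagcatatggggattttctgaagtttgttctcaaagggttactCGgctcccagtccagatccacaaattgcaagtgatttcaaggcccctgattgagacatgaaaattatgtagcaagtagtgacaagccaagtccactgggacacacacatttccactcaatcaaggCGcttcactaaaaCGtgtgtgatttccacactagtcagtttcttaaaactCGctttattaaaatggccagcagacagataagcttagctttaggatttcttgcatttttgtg
Tas2r138: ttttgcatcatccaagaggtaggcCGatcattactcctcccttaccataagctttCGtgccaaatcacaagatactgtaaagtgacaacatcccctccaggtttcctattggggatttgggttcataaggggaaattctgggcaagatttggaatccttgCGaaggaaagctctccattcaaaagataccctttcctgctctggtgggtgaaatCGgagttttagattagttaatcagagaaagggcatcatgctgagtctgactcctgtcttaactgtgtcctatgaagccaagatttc

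Where these windows had reads, most were methylated, with Olfr222 as the exception. The libraries list different CpGs of a window, so their values are not levels of the same CpGs. Of the 11 CpGs of Olfr750, both FGR libraries list 11, with 88.2% of 102 reads and 92.3% of 130 reads methylated, and the control libraries list 5 and 4, with 96.3% of 27 reads and 90% of 20 reads. Of the 5 CpGs of Taar9, the FGR libraries list 3 and 5, at 80% of 20 reads and 83.0% of 47 reads, and both control libraries list 5, at 78.1% of 32 reads and 89.7% of 29 reads. Of the 4 CpGs of Vmn2r1, the FGR libraries list 2 and 4, at 84.6% of 13 reads and 93.5% of 46 reads, and the control libraries list 4 and 3, at 84.6% of 26 reads and 66.7% of 15 reads. These counts are small and the CpGs unlike, so no difference between groups is read from them. All 5 CpGs of Taar2 were listed in control replicate 2, at 74.3% of 35 reads. FGR replicate 2 and control replicate 1 each list 1 of them, at 100% of 5 reads and 60% of 5 reads. The 4 CpGs of Tas2r138 were listed in FGR replicate 2, at 93.0% of 43 reads, and in control replicate 1, at 94.9% of 39 reads. In Olfr222 the 5 CpGs were listed in the FGR libraries alone, at 30.8% of 26 reads and 12.9% of 31 reads. At the CpG farthest upstream, 166 bases before the start, 4 of 5 and 3 of 5 reads were methylated. At each of the other 4 CpGs at most 1 read was methylated in a library, of 5 to 8 reads, so the CpGs nearer the start carried little methylation in the libraries that list them.

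Letters of 2 kinds of site known from olfactory receptor promoters were counted in the same windows. TAATNA, a core that homeodomain proteins such as Lhx2 and Emx2 can bind, was present on either strand in 68.0% of member windows, against 26.4% of all windows. The share was not highest in Olfr: it was 66.0% in Olfr, 77.7% in Vmn1r, 70.1% in Vmn2r, 63.6% in Taar and 58.1% in Tas2r. CCCNNGGG, a form of the Ebf site that reads the same on both strands, was present in 4.06% of member windows, against 13.9% of all windows; in Vmn2r windows alone the share was 19.7%. A match to one cannot overlap a match to the other. These are matches of letters in windows of differing base composition, not sites known to be bound.

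Over all CpGs of the members, methylation was lower than over the other gene spans in every library. The members' level was 67.5% and 67.9% in FGR, against 67.8% and 68.4% in control, over 43769 CpGs. Other gene spans stood at 75.5% and 76.9% in FGR, against 77.2% and 77.7% in control. The members therefore lay below the other spans, by a difference of -7.95 and -8.99 points in FGR and -9.40 and -9.36 points in control. Over shared CpGs the difference was larger, at -13.2 and -13.6 points in FGR and -13.3 and -13.5 points in control. It was present in 4 of 4 libraries, and an exact two-sided paired test of 4 libraries cannot go below p = 0.125. A level between 0 and 100% in bulk DNA can come from cells, alleles or cell types that differ, and these cannot be told apart here.

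In every library Taar stood highest among the families and Olfr next, while the values of the Vmn2r libraries overlapped those of Vmn1r and of Tas2r. The Olfr genes, which encode the receptors of the main olfactory epithelium, stood at 70.3% and 70.1% in FGR, against 70.1% and 70.7% in control. The Vmn1r genes, whose products are thought to detect small pheromones, stood at 64.2% and 65.4% in FGR, against 65.4% and 64.7% in control. The Vmn2r genes, whose products carry a long extracellular domain and detect peptides and proteins, stood at 65.0% and 65.5% in FGR, against 65.6% and 66.2% in control. In every library both vomeronasal families thus lay below Olfr. The Tas2r genes, which encode the bitter receptors, stood at 65.4% and 68.4% in FGR, against 67.3% and 67.3% in control, near the vomeronasal families. The Taar genes were the only family above the other gene spans, at 79.8% and 81.8% in FGR, against 80.5% and 83.8% in control, and this rests on 409 CpGs of 16 genes in a single cluster. Over the 38 shared CpGs of the Taar genes that excess was present in 2 of 4 libraries only (0.0519 and 1.92 points in FGR, -0.838 and -1.68 points in control).

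**Figure D1:**
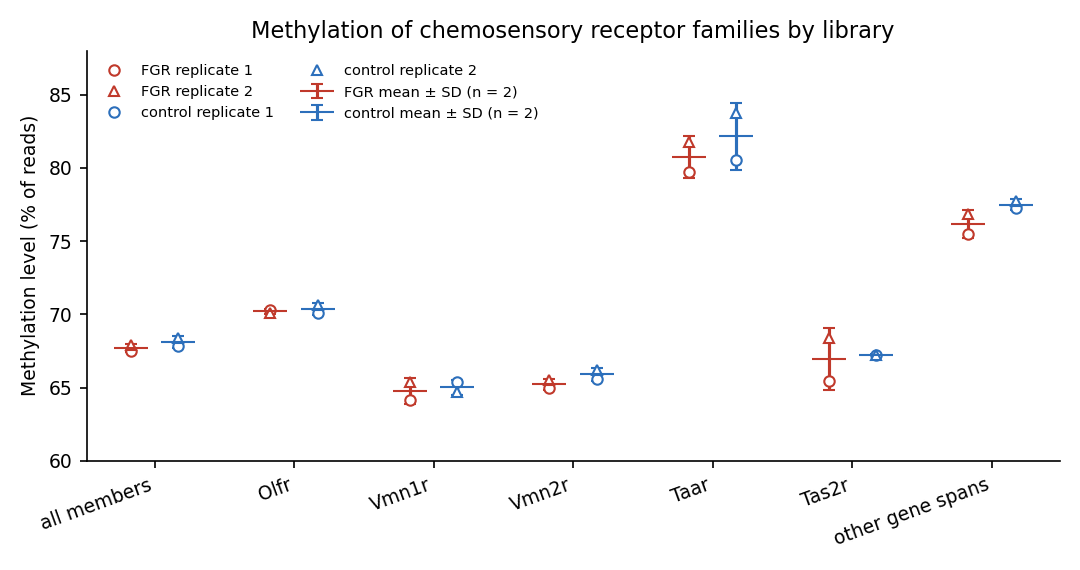
Methylation level (percent of reads, vertical axis from 60) of each receptor family and of the other gene spans; points are libraries (FGR left, control right), horizontal lines are group means and bars are SD (n = 2). The Olfr points lie between 70.1% and 70.7%, both vomeronasal families below them, and Taar above the other gene spans.

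Pseudogenes are many in these families, and their levels were within a few points of those of intact genes. The 211 Olfr pseudogenes stood at 69.6% and 69.8% in FGR, against 69.9% and 71.0% in control, and the 914 protein-coding Olfr genes at 70.4% and 70.1% in FGR, against 70.2% and 70.6% in control. In the Vmn1r family the 66 pseudogenes stood higher than the 135 protein-coding genes in 4 of 4 libraries over all CpGs, at 66.6% and 68.1% in FGR and 68.5% and 65.3% in control, against 63.2% and 64.4% in FGR and 64.0% and 64.5% in control for the coding genes. Over shared CpGs this did not hold: the Vmn1r pseudogenes were at 63.2% and 63.4% in FGR and 65.1% and 64.6% in control, against 67.5% and 63.2% in FGR and 65.2% and 64.1% in control for the coding genes. The 88 Vmn2r pseudogenes also stood above the 118 coding genes in all 4 libraries over all CpGs, with a mean of 66.2% in FGR and 67.0% in control, against 64.6% in FGR and 65.2% in control for the coding genes. Over shared CpGs they lay below the coding genes in FGR replicate 1 (62.7% against 63.3%).

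Gene by gene, the members filled a middle range. Their median of the mean level over 4 libraries was 68.2% with quartiles of 60.7% and 74.5%, against 75.5% with quartiles of 67.0% and 82.2% for the other gene spans. No member of 1580 had a level under 20%, against 896 of 41166 other spans. Above 80% were 178 members, or 11.3%, against 33.1% of the other spans. Medians by family were 69.7% for Olfr, 64.4% for Vmn1r, 63.9% for Vmn2r, 81.4% for Taar and 64.6% for Tas2r. The lowest member was at 30.2% and the highest at 96.9%, both on few CpGs.

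**Figure D2:**
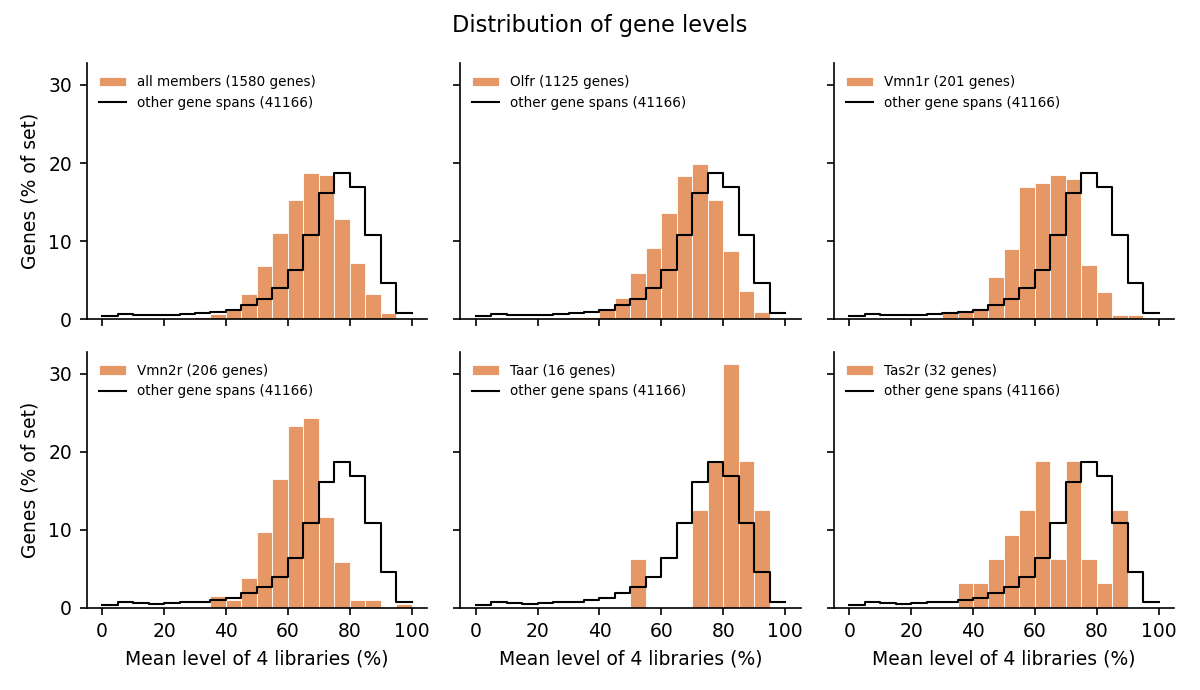
Share of genes (percent of the set, vertical axis) by mean level over the 4 libraries (horizontal axis, bins of 5 points) for all members and each family (bars), with the other gene spans as a line. The members pile up around their median of 68.2% and have no gene under 20%, where 896 other spans lie.

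Single CpGs showed the same. Among CpGs with 10 or more reads, those between 20% and 80% methylated made up 53.7% (95% Wilson interval 52.1 to 55.3) and 53.4% (52.4 to 54.3) of member CpGs in FGR, and 54.7% (53.4 to 56.0) and 52.9% (51.7 to 54.1) in control. In other gene spans the share was 29.8% and 29.9% in FGR and 29.1% and 28.9% in control. Fully methylated CpGs made up 9.88% and 10.5% of member CpGs in FGR and 10.7% and 11.9% in control, against 27.8% and 27.6% in FGR and 29.8% and 30.04% in control for other spans. CpGs at 20% or less were about as frequent in both sets, at 5.81% to 6.60% of member CpGs and 4.54% to 6.56% of the others. So partly methylated CpGs were more frequent among the members in all 4 libraries, and the intervals cover counting error only.

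The contrast was also set against CpG density. Members held a median of 4.12 measured CpGs per kb, against 8.97 in other spans, and 15 measured CpGs against 97. Within bands of density the members had the lower median up to 8 CpGs per kb: medians were 63.8% for 665 members against 67.4% for 2260 other spans at 2 to 4 CpGs per kb, 69.2% for 551 members against 73.9% at 4 to 6, and 73.7% for 190 members against 77.7% at 6 to 8. At 8 or more the order turned, with 78.2% for 135 members and 75.8% for the other spans. Among the members each denser band had the higher median, starting at 55.8% for the 39 members below 2 CpGs per kb. Density here counts CpGs listed in any library and so also follows depth.

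Other genes were depleted of methylation at their starts and the receptor genes were not. In the promoter window the members stood at 65.9% and 67.2% in FGR, against 66.7% and 67.1% in control, close to their whole-span levels. Other genes stood at 26.6% and 33.8% in FGR, against 32.8% and 35.2% in control. In bins of 500 bp from -3000 to 2999 bp of the start, the members ranged from 63.3% to 72.0% over all bins and libraries. Their highest bins were the first 1000 bp after the start at 70.0% to 72.0%. The gene spans themselves and the 1 kb flanks differed little, at 67.7% and 68.2% in FGR and 68.1% and 68.8% in control for the genes, and 67.1% and 67.2% in FGR and 67.3% and 67.4% in control for the flanks.

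**Figure D3:**
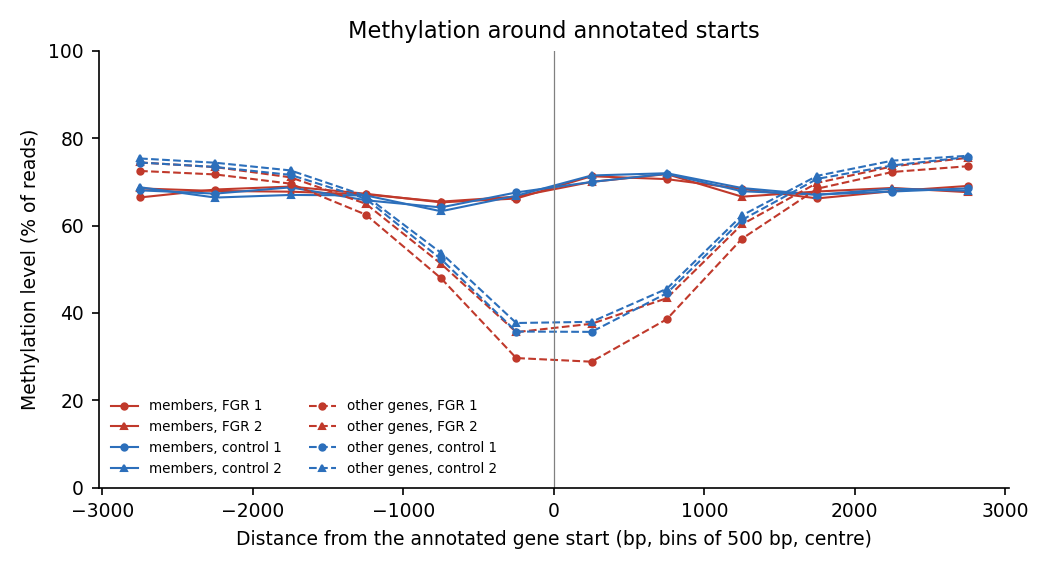
Methylation level (percent of reads) by distance from the annotated gene start (bp, bins of 500 bp) for members (solid) and other genes (dashed) in FGR (red) and control (blue) libraries. The member lines stay between 63.3% and 72.0%. In the first bin after the start the other genes stand at 28.9% and 37.5% in FGR and 35.7% and 38.0% in control. In replicate 2 of each group the bin before the start is lower, at 35.6% in FGR and 37.7% in control.

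The lower level reached beyond the genes into the clusters. Joining members less than 500 kb apart gave 112 clusters, of which 40 with 10 or more members held 1913 of the 2099 genes. Between the members of those 40 clusters the level was 69.0% and 69.3% in FGR, against 69.8% and 69.9% in control. In the 500 kb on either side it was 72.3% and 73.7% in FGR, against 74.2% and 74.4% in control. Other genes lying inside the clusters stood at 69.7% and 71.5% in FGR, against 73.0% and 73.8% in control. The order was members, intervening sequence, other genes within, and surroundings in 4 of 4 libraries.

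Of 39 clusters with 10 or more measured members, 34 had a mean level under the 76.8% of the other gene spans. The lowest was the run from Vmn1r91 to Vmn1r183 on chromosome 7, where only 25 of 99 genes were measured, at 57.7% and 57.4% in FGR, against 59.5% and 62.0% in control. Next came the run from Vmn2r-ps50 to Vmn1r71 on chromosome 7 and that from Vmn2r-ps35 to Vmn2r37 on the same chromosome, with means of 59.3% and 60.2%. The cluster of 235 measured genes from Olfr987 to Olfr1274 on chromosome 2, the most populous, stood at 66.7% and 66.7% in FGR, against 66.5% and 68.4% in control. At the top were Taar1 to Taar9 on chromosome 10, with a mean of 81.5%, and Olfr433 to Olfr220 on chromosome 1, with 79.9%. Clusters mostly of Olfr genes spread from 61.2% to 79.9% and those mostly of vomeronasal genes from 59.2% to 72.7%. The class I olfactory receptors, the older, fish-like group, lie in the cluster of Olfr78 on chromosome 7. Its 140 Olfr genes stood at 73.9% and 74.2% in FGR, against 74.6% and 74.5% in control, and the 985 Olfr genes elsewhere at 69.8% and 69.4% in FGR, against 69.4% and 70.1% in control, so class I lay higher in every library.

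**Figure D4:**
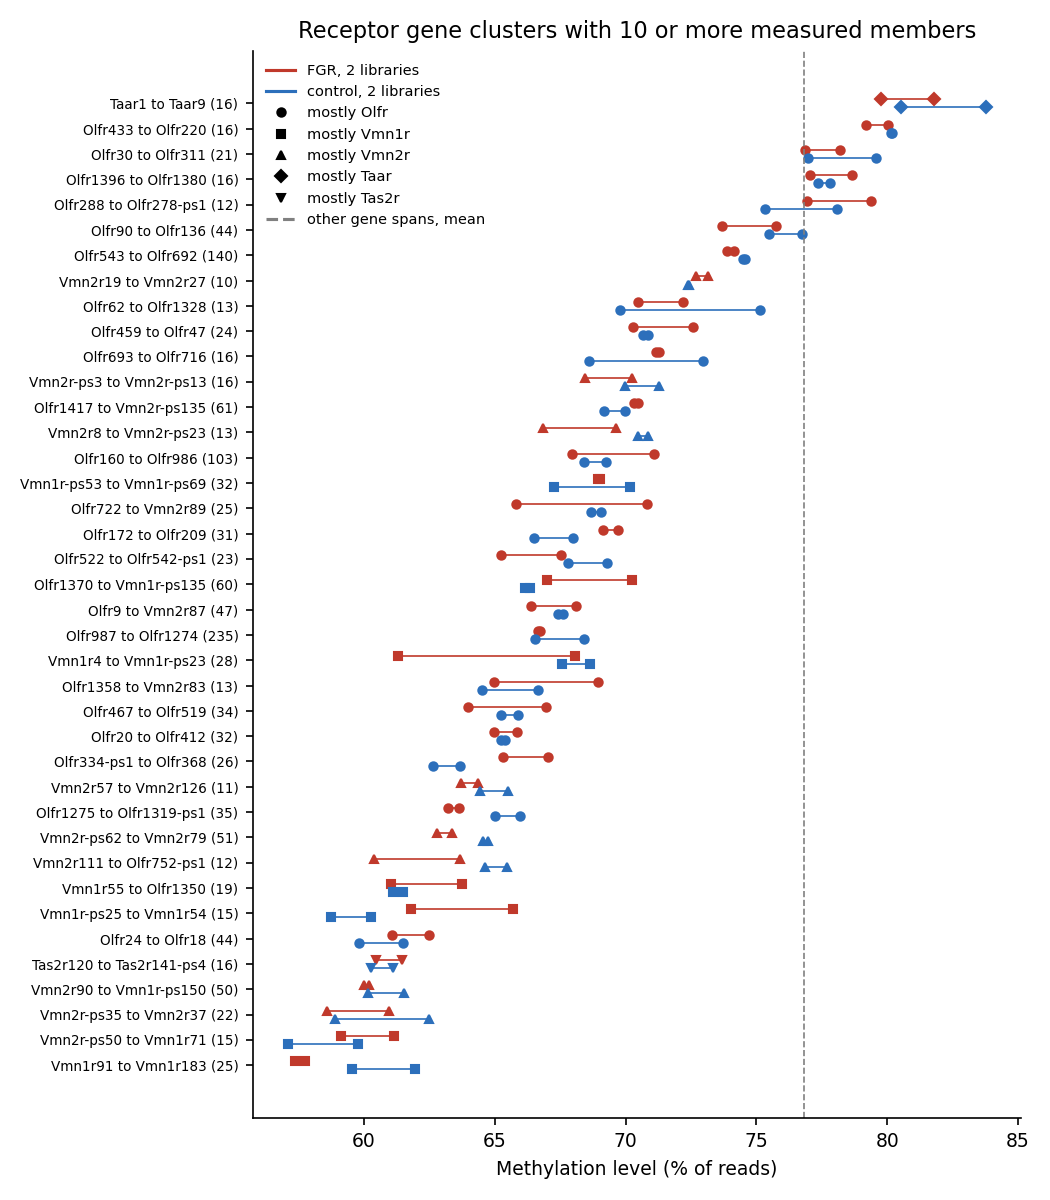
Methylation level (percent of reads) of the 39 clusters with 10 or more measured members, each named by its first and last gene with the number measured; points joined by a line are the 2 FGR libraries (red, upper) and the 2 control libraries (blue, lower), and the dashed line is the mean of other gene spans, 76.8%. In all, 34 clusters lie left of the dashed line on average, and vomeronasal clusters fill the lower end.

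By chromosome, the members lay below the other gene spans of the same chromosome in 4 of 4 libraries on 18 of 19 autosomes. Members minus other spans came to -13.95 points over 109 members on chromosome 17, -11.6 over 70 on chromosome 13, -10.5 over 299 on chromosome 2 and -10.02 over 148 on chromosome 9. It was -2.03 points over 87 members on chromosome 11 and -2.37 over 31 on chromosome 1. On chromosome 15 the 13 members averaged 77.2%, against 76.9% for its other spans, and were lower in 3 of 4 libraries. The difference was thus present on nearly every autosome and unequal in size, and the order of chromosomes was not tested.

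Turning to growth restriction, the family levels of FGR and control libraries were close, and no difference could pass a test. With 2 libraries a group the exact two-sided permutation test over 6 assignments cannot go below p = 0.333. Over all members the FGR mean was 67.7% ± 0.246 and the control mean 68.1% ± 0.393 (SD, n = 2 each), a difference of -0.403 points (exact permutation p = 0.667). Over shared CpGs it was -0.351 points (exact permutation p = 0.333). Without FGR replicate 1 it was -0.229 points. For other gene spans the difference was -1.31 points over all CpGs and -0.382 over shared CpGs, the same direction.

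Of the families only Vmn2r had both FGR libraries below both controls, at 65.2% ± 0.382 in FGR and 65.9% ± 0.452 in control (SD, n = 2 each; -0.663 points, exact permutation p = 0.333). Over shared CpGs the Vmn2r levels were 63.1% and 63.2% in FGR, against 64.0% and 63.7% in control, again without overlap. The groups overlapped without the 1 kb extension (exact permutation p = 0.667) and over CpGs with 10 or more reads (exact permutation p = 1). Other gene spans also had both FGR libraries below both controls, and relative to them the Vmn2r difference was 0.651 points over all CpGs and -0.328 over shared CpGs (exact permutation p = 0.333 each). In the other families the groups overlapped, with differences of -0.187 points for Olfr, -0.249 for Vmn1r, -1.38 for Taar and -0.323 for Tas2r. Signs turned over shared CpGs for Vmn1r (0.171 points) and Taar (1.86 points). For Olfr the difference was 1.18 points over CpGs with 10 or more reads. Without control replicate 2 it was 0.102 points for Olfr and 0.238 for Taar, without control replicate 1 it was 0.106 for Vmn1r, and without FGR replicate 1 it was 0.383 for Vmn1r and 1.17 for Tas2r. The direction was thus held by Vmn2r alone among the families when a library was left out. Relative to other gene spans, the members' difference was 0.911 points over all CpGs (exact permutation p = 0.333) and 0.0309 points over shared CpGs (exact permutation p = 1).

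Grouped by family and chromosome, 25 of 42 groups had 10 or more genes. Both FGR libraries were below both controls in 5 of the 25, above in 3, and overlapping in 17, where across all single gene spans 23% were below and 12.3% above. The groups below were Vmn2r on chromosomes 5, 7 and 17, Vmn1r on chromosome 7 and Olfr on chromosome 7. Vmn2r on chromosome 5 (19 genes) stood at 69.2% and 70.6% in FGR, against 71.3% and 72.1% in control. Vmn2r on chromosome 17 (48 genes) stood at 60.3% and 61.3% in FGR, against 61.5% and 62.6% in control, and on chromosome 7 (81 genes) at 63.2% and 63.3% in FGR, against 63.8% and 64.0% in control. Over shared CpGs these 3 differences were -1.26, -0.975 and -0.517 points. The groups above were Vmn1r on chromosome 13, Vmn2r on chromosome 6 and Olfr on chromosome 19. Vmn1r on chromosome 13 (48 genes) had the largest of the 3, at 64.8% and 66.9% in FGR, against 64.4% and 61.5% in control, and 2.29 points over shared CpGs. For Olfr on chromosomes 7 and 19 the sign turned over shared CpGs, from -0.738 to 0.0958 points and from 0.814 to -0.610 points.

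Across single genes no member passed. The quasi-binomial test, with its overdispersion moderated by limma, called 0 of 1580 members and 0 of 42746 gene spans (0% called) where a call needs a difference of 10 points or more and an adjusted p (Benjamini-Hochberg) under 0.05. The smallest adjusted p of a member was 0.690. Limma on log2 ratios also called 0 members and 0 of all spans. In simulated data with varying spread, the quasi-binomial test recovered 0 of 50 member spans changed by 20 points. The absence of calls therefore does not show that levels were unchanged. At an unadjusted p under 0.05 stood 44 members, or 2.79%, against 6.21% of all gene spans, with 20 higher and 24 lower in FGR (background 1.72% higher and 4.5% lower); limma on log2 ratios put 104 members there, or 6.58%, against 5.87% of all spans. The members' share under that p was thus below that of all spans in the quasi-binomial test and above it in limma on log2 ratios. Members have fewer reads: a median of 41 in the library with the fewest, against 210 for other spans. Over shared CpGs 34 of 666 tested members had an unadjusted p under 0.05, or 5.11%, against a background of 4.65%, with 19 lower and 15 higher in FGR (background 2.84% lower and 1.81% higher), and again 0 were called.

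In direction the members were nearly even. The FGR mean was lower in 825 and higher in 755, or 52.2% lower, where 59.4% of all gene spans were lower and 40.6% higher. Both FGR libraries lay below both controls in 278 members, or 17.6%, against 23% of all spans, and above in 256, or 16.2%, against 12.3%. The members' median difference was -0.379 points, against -0.973 over all spans. Among the 377 members with 10 or more CpGs in every library, the median gap between replicates was 4.30 points in FGR and 4.17 in control. Their median absolute difference between groups was 2.88 points. For other gene spans with 10 or more CpGs the gaps were 4.06 and 3.84 points and the difference 3.00 points. A difference between group means is expected to be smaller than a gap between single libraries, so this order shows nothing about growth restriction.

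**Figure D5:**
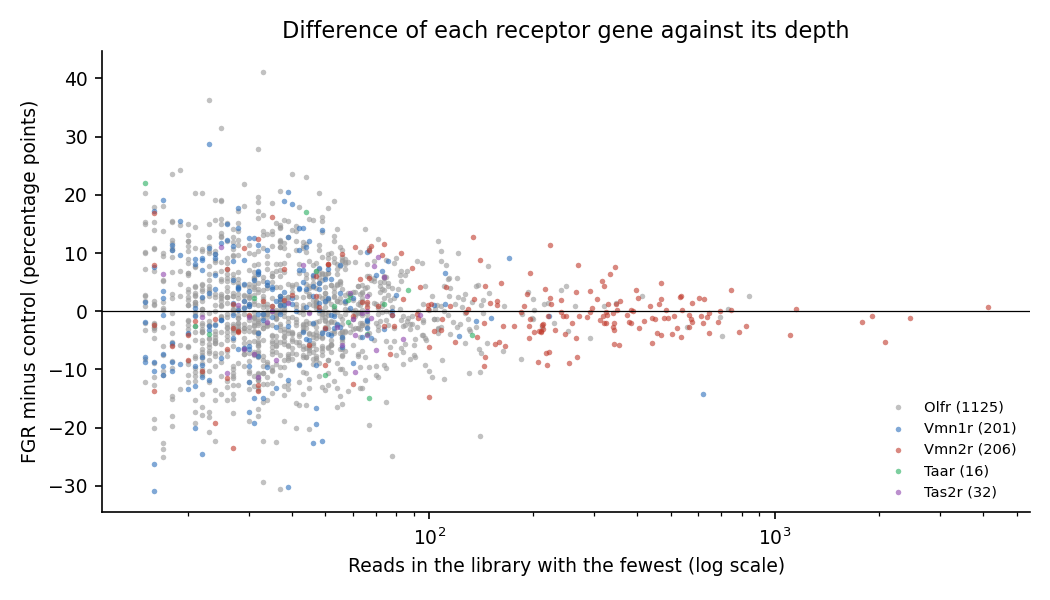
Difference of each member (FGR minus control, percentage points, vertical axis) against its reads in the library with the fewest (log axis), coloured by family. Differences beyond 20 points occur mostly under 100 reads, and the well-covered Vmn2r genes lie close to 0.

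Receptors with a known ligand or a known use outside the nose were read one by one; 27 of 29 were measured, and Tas2r143 and Vmn1r49 had fewer than 3 CpGs in a library. None was called (adjusted p of the quasi-binomial test moderated by limma 0.800 or more). Olfr78, a receptor of short-chain fatty acids and lactate found in the carotid body and in blood vessels, stood at 67.7% and 71.2% in FGR, against 68.6% and 74.2% in control. Olfr2, a receptor of octanal that vascular macrophages use, stood at 82.6% and 79.2% in FGR, against 78.8% and 77.8% in control. Both groups lay within a few points in each. Olfr1393, known from the kidney proximal tubule and measured on 268 CpGs, stood at 79.2% and 79.5% in FGR, against 79.4% and 78.5% in control. Olfr544, a receptor of azelaic acid known from fat and liver, stood at 90.4% and 75.5% in FGR, against 84.6% and 84.6% in control. The FGR libraries thus overlapped the control libraries in Olfr78, Olfr1393 and Olfr544, and lay above them in Olfr2. Over the 12 CpGs of Olfr2 listed in both groups the direction turned, with pooled levels of 79.85% in FGR and 86.25% in control.

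Of the classical odour receptors, Olfr73, the eugenol receptor, stood at 71.4% and 66.1% in FGR, against 69.5% and 68.2% in control. Olfr160 and Olfr151, the neighbouring receptors long known as M72 and M71, differed from each other in sign. Olfr160 stood at 76.7% and 72.3% in FGR, against 77.3% and 78.6% in control, and Olfr151 at 81.9% and 78.4% in FGR, against 70.1% and 70.5% in control. Olfr151, which the reference table lists as a transcribed pseudogene, had the largest positive difference of the known receptors, 9.87 points (adjusted p = 0.878). Olfr110 and Olfr111, neighbours on chromosome 17, also stood higher in both FGR libraries: 89.1% and 87.7% in FGR, against 78.1% and 81.5% in control for Olfr110, and 71.5% and 73.8% in FGR, against 61.6% and 68.2% in control for Olfr111. Without the 1 kb extension the differences were 5.06 points for Olfr151 and 5.62 for Olfr110. Over the CpGs listed in both groups the pooled levels were 88.7% in FGR and 83.7% in control for Olfr110, and 72.4% in FGR and 66.4% in control for Olfr111.

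Taar1, a receptor of trace amines that acts in the brain and is not used by the olfactory epithelium, stood at 82.7% and 79.7% in FGR, against 72.4% and 82.7% in control. Taar5, the receptor of trimethylamine, stood at 72.6% and 75.2% in FGR, against 72.4% and 73.6% in control, and Taar4, the receptor of phenylethylamine, at 95.2% and 85.5% in FGR, against 92.4% and 93.3% in control. Over all CpGs the groups overlapped in all 3. On shared CpGs the difference was 11.75 points for Taar1 (3 CpGs) and -21.4 for Taar5 (2 CpGs), without overlap. Over CpGs listed in both groups it was 0.638 points for Taar1 (25 CpGs) and -6.89 for Taar5 (12 CpGs). Taar9 had the largest negative difference of the known receptors, with 71.6% and 75.9% in FGR, against 83.8% and 93.5% in control (-14.9 points, adjusted p = 0.800). Over the 22 CpGs of Taar9 listed in both groups the pooled levels were 84.0% in FGR and 87.5% in control, a difference of -3.42 points.

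Among the vomeronasal receptors, Vmn2r1, which belongs to the subfamily that is co-expressed with other Vmn2r genes, was measured on 616 CpGs and stood at 70.2% and 71.4% in FGR, against 70.4% and 72.9% in control. Vmn2r26, a receptor of MHC peptides, stood at 70.2% and 70.7% in FGR, against 75.1% and 67.0% in control. Vmn2r116, the receptor of the male tear pheromone ESP1, was lower, at 53.4% and 50.8% in FGR, against 57.9% and 63.8% in control. Its difference of -8.70 points (adjusted p = 0.887) turned to 3.83 points over 10 shared CpGs. Of the bitter receptors, Tas2r105, a receptor of cycloheximide, stood at 57.4% and 73.9% in FGR, against 80.5% and 71.6% in control, and Tas2r108 at 84.8% and 88.8% in FGR, against 84.2% and 84.1% in control. Tas2r138, the mouse counterpart of the human receptor of phenylthiocarbamide, stood at 79.7% and 90.9% in FGR, against 85.6% and 85.7% in control. Over all CpGs the FGR libraries overlapped the controls in Tas2r105 and Tas2r138. Over its 3 shared CpGs Tas2r138 was higher in both FGR libraries, by 13.2 points. Over its 13 CpGs listed in both groups the pooled difference was 0.338 points.

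The members with the smallest p values among those with 10 or more CpGs in every library were also followed, with no call among them. Olfr222 on chromosome 11 (59570782 to 59571738) stood at 50.5% and 52.7% in FGR, against 67.9% and 78.1% in control, -21.4 points (adjusted p = 0.692). Its groups did not overlap, but the libraries list different CpGs: over the 24 CpGs listed in both groups the pooled levels were 65.2% in FGR and 66.1% in control, -0.887 points. The weakly methylated promoter CpGs printed above were among those listed in FGR alone. Without the 1 kb extension the difference was 2.59 points. Olfr557 on chromosome 7 (102698216 to 102699272), a class I receptor gene, stood at 63.0% and 56.7% in FGR, against 81.2% and 77.5% in control, -19.5 points (adjusted p = 0.718). Over its 14 CpGs listed in both groups the pooled levels were 62.9% in FGR and 81.9% in control, -18.9 points, so here the difference was as large on common CpGs. Olfr1264 on chromosome 2 stood at 52.6% and 57.0% in FGR, against 74.4% and 85.1% in control, and over 13 common CpGs at 66.7% in FGR and 79.7% in control. Olfr52, also on chromosome 2, stood at 58.7% and 67.4% in FGR, against 75.5% and 81.9% in control, and Olfr524 on chromosome 7 at 71.8% and 62.6% in FGR, against 77.7% and 79.2% in control. The differences of the last 3 were -24.9, -15.7 and -11.2 points (adjusted p = 0.692, 0.814 and 0.818). Over common CpGs they were -12.0 points for Olfr52 and -6.32 for Olfr524. In all 5 the groups did not overlap, which a choice by smallest p favours. Across all gene spans 23% had both FGR libraries below both controls.

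Higher in FGR by the same choice were Vmn2r69, Vmn2r-ps108, Olfr110, Vmn2r-ps24, Vmn2r-ps95 and Vmn2r35, by 8.20 to 12.8 points (adjusted p = 0.825 to 0.883). All but Olfr110 are vomeronasal type 2 genes or pseudogenes, as are 162 of the 377 members from which the choice was made. Among those 162 the FGR mean was lower in 96 and higher in 66. Vmn2r69 on chromosome 7 (85406376 to 85415676) stood at 74.2% and 67.4% in FGR, against 56.3% and 59.7% in control, and over 24 common CpGs at 66.9% in FGR and 57.8% in control. Its difference of 12.8 points was 6.44 over shared CpGs and 2.88 without the 1 kb extension. The pseudogene Vmn2r-ps24 on chromosome 5 stood at 74.9% and 68.3% in FGR, against 63.2% and 57.4% in control, and over 40 common CpGs at 71.0% in FGR and 62.5% in control. The groups did not overlap in these 2, which the choice by p again favours. Many Vmn1r and Vmn2r genes have near-identical copies, and the treatment of reads that match several copies is a step not given in the sources used here, so levels of single vomeronasal genes are uncertain.

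At the ends of the range among members with 10 or more CpGs in every library stood the following genes. Olfr94 on chromosome 17 stood at 36.5% and 28.3% in FGR, against 30.8% and 42.8% in control. Over the 16 CpGs of Olfr94 listed in both groups the pooled levels were 60.1% in FGR and 47.0% in control, so its low level and its direction depend on CpGs listed in a single group. Vmn2r50 on chromosome 7 stood at 44.0% and 41.7% in FGR, against 49.01% and 49.07% in control. The pseudogene Vmn1r-ps135 on chromosome 13 had a wide spread, with 5.77% and 59.1% in FGR, against 39.2% and 33.8% in control, and over 19 common CpGs 45.4% in FGR and 53.0% in control. The FGR libraries thus lay on either side of both controls. At the other end, Olfr521 stood at 86.2% and 96.6% in FGR, against 97.7% and 91.2% in control, Olfr315 at 86.8% and 92.6% in FGR, against 92.0% and 90.1% in control, and Olfr750, whose promoter is printed above, at 79.0% and 92.7% in FGR, against 96.0% and 96.9% in control.

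Of 333 members with 5 or more shared CpGs, Olfr1160 and Olfr39 had the most negative and Olfr866 and Vmn1r196 the most positive differences on those CpGs. Olfr1160 stood at 47.9% and 70.0% in FGR, against 78.8% and 86.3% in control, and Olfr39 at 43.9% and 60.3% in FGR, against 72.7% and 74.3% in control. Olfr866, which lies near Olfr39 on chromosome 9, stood at 75% and 69.6% in FGR, against 60% and 40.5% in control, and Vmn1r196 at 78.7% and 78.1% in FGR, against 51.5% and 63.8% in control. Each rests on 5 or 6 CpGs, the groups did not overlap, and the adjusted p was 0.970 for each over shared CpGs. A choice by largest difference favours groups that do not overlap. The differences reached 22.0 points in one direction and -23.6 in the other, so the extremes were about as large both ways.

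The genes of chemosensory signalling and receptor choice showed no call either. Of 32 listed, 32 were measured, 0 were called, 0 had an unadjusted p under 0.05, 12 were higher and 20 lower in FGR, and the median difference was -0.549 points, against -0.973 over all spans. Rtp1, a chaperone that brings olfactory receptors to the cell surface, stood at 80.9% and 80.3% in FGR, against 88.8% and 90.0% in control (adjusted p = 0.812). Cnga4, a subunit of the olfactory cyclic nucleotide-gated channel, spread widely, at 42.4% and 74.2% in FGR, against 68.8% and 78.8% in control. The groups overlapped in Cnga4. Gng13, a G protein subunit of olfactory and taste cells, had the largest difference of the list, 28.2 points (adjusted p = 0.825), at 47.1% and 89.0% in FGR, against 31.6% and 48% in control, so the groups overlapped. Gnai2, the G protein subunit of Vmn1r neurons, stood at 67.3% and 66.0% in FGR, against 58.2% and 59.4% in control, higher in both FGR libraries over all CpGs, but over shared CpGs its difference was -4.43 points. Atf5, a transcription factor of the receptor choice pathway, stood at 11.97% and 24.4% in FGR, against 14.1% and 5.71% in control. Emx2, a transcription factor of olfactory receptor genes, was nearly free of methylation, at 4.34% and 4.20% in FGR, against 8.47% and 13.2% in control. Lhx2, which binds receptor enhancers, stood at 28.9% and 28.4% in FGR, against 29.0% and 33.4% in control. Unlike any of the 1580 tested receptor genes, the regulators Emx2 and Atf5 thus had mean levels below 20%.

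The levels of the better covered members correlated between libraries, and the remaining members were not compared in this way. Across the 122 members with 10 or more shared CpGs, Pearson's r between the levels of 2 libraries was 0.742 between the FGR libraries, 0.789 between the control libraries, and 0.754 to 0.813 between an FGR and a control library. On these CpGs libraries of one group were no more alike than libraries of different groups. Over all CpGs of the 377 members with 10 or more CpGs in every library, r was 0.766 between the FGR libraries. It was 0.756 between the control libraries and 0.696 to 0.797 between groups, so the values within a group fell inside that range. These are correlations across genes, which are not independent replicates. Reads per CpG were 7.10 and 8.56 in FGR and 7.59 and 7.84 in control for the members, against 6.66 and 7.93 in FGR and 7.06 and 7.21 in control for other spans.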

How the data were processed

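Whole-genome bisulfite libraries of hippocampal microglia, 2 FGR and 2 control, were analysed from the deposited tables of CpG cytosines. The deposited coverage is a whole-number count of reads per cytosine and strand, beside the percent of reads with C and with T, per the file headers. Trim Galore 0.6.5, methylKit 1.28.0, mm10 and Bismark are named in the submitters' processing notes; the version of Bismark and all parameters are details not given in the sources used here. Coverage times percent was whole within 0.02 reads for 100% of cytosines. Cytosines under 5 reads are missing, so which CpGs are listed depends on depth, and 13.7% of member CpGs are shared by all 4 libraries.

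Strands were summed per CpG, after which the most covered 0.1% of autosomal CpGs of each library were dropped. Gene spans are those of RefSeq for GRCm38.p6, extended by 1 kb; 56 of 1580 members overlap another member. A read counts at every CpG it covers, and duplicates cannot be told apart, so Wilson intervals may be too narrow.

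Methylated and unmethylated counts of each span with 3 or more CpGs in every library entered a quasi-binomial fit on group alone. Its overdispersion was moderated by squeezeVar of limma 3.58.1 in R 4.3.3 (trend on coverage, minimum 1), and p was adjusted by Benjamini-Hochberg over all 42746 spans. The test was tried on simulated data, with 50 member spans changed by each size. With spread varying between spans it recovered 0 of 50 changed by 20 points, 3 by 30, 13 by 40 and 45 by 60. With equal spread it recovered 8, 28, 42 and 50. Family levels were compared by two-sided exact permutation. Tables were made with Python 3.11.15, numpy 2.4.6 and pandas 2.3.3.

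Named genes are 29 known receptors, the 6 members with the smallest p in each direction and the 4 lowest and 4 highest levels (each among members with 10 or more CpGs in every library), and the 4 largest differences in each direction on 5 or more shared CpGs. CpGs "listed in both groups" or "common" have data in at least 1 library of each group, and their reads were pooled within a group. Just inside the limit of 3 CpGs stood 245 members with a median level of 64.3% and a median difference of 0.282 points, and just outside, at 2 CpGs, 226 with 65.2% and -0.378 points. The members and lists were chosen with earlier results of these data known. Alternatives were shared CpGs, no extension, 10 CpGs per span, 10 reads per CpG, the most covered CpGs kept, equal weights, protein-coding genes only, limma on log2 ratios with 0.5 added, a replicate block, and each library left out.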

Additional observations from a re-analysis of the deposited data

How the results depend on the processing

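No gene span was called under any alternative that kept every library, among the members or among all spans. Deviations of same-numbered libraries from their group means correlated at r = 0.0242 over 32759 spans. With 2 libraries a group, this value cannot show whether same-numbered libraries were paired. With a replicate block, 0 members were called, 32 had an unadjusted p under 0.05 (3159 of all spans), and the smallest adjusted p was 0.461. With a library left out, its group has no spread of its own and the test takes the spread from the other group alone. Counts and p values of those fits are therefore not given.

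Family differences turned sign as follows. With CpGs of 10 or more reads the difference was 0.158 points over all members and 1.18 for Olfr. Over shared CpGs it was 0.171 for Vmn1r and 1.86 for Taar. For Tas2r it was 0.238 with equal weights and 0.107 for protein-coding members. Leaving out each library in turn gave -0.681 to -0.125 points over all members, -0.476 to 0.102 for Olfr, -0.881 to 0.383 for Vmn1r, -0.982 to -0.343 for Vmn2r, -3.00 to 0.238 for Taar and -1.82 to 1.17 for Tas2r. Vmn2r stayed negative under every alternative run, but its groups overlapped without extension and with 10 reads per CpG, and relative to other gene spans its difference was 0.651 points. The cause of the turns was not tested.

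The differences of single named genes were unstable in sign. Leaving out a library changed the sign in 9 of 53 named genes for FGR replicate 1, 5 for FGR replicate 2, 8 for control replicate 1 and 6 for control replicate 2. Over shared CpGs the sign changed in 4 of 30 genes, without extension in 4 of 33, with 10 reads per CpG in 1 of 12, and with the most covered CpGs kept in 1 of 53. Shifts larger than the replicate SD, or turns where the groups had not overlapped, occurred in 13 of 30 genes over shared CpGs, 9 of 33 without extension and 5 of 12 with 10 reads. The turned values were 3.83 points over shared CpGs and 7.18 with 10 reads for Vmn2r116, 2.59 without extension for Olfr222, and -16.2 over shared CpGs for Vmn1r45. Over all 1580 members, with a median of 41 reads in the library with the fewest, the median gap between replicates was 6.45 points in FGR and 6.76 in control.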

Other observations

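The Vmn2r genes were the family with most CpGs per gene after extension, with a median of 62 measured CpGs and 210.5 reads in the library with the fewest, against 14 CpGs and 38 reads for Olfr. Their median difference between FGR and control was -0.746 points, with 118 lower and 88 higher, and 0 of 206 had an unadjusted p under 0.05 in the quasi-binomial test moderated by limma. With 57.3% lower, Vmn2r did not lean further than all gene spans, which had 59.4% lower, a median of -0.973 points and 6.21% under that p. The Vmn1r genes had a median of 1.002 points with 92 lower and 109 higher, but -0.0296 among those with 10 or more CpGs in every library, a pooled family difference of -0.249, and 8 of the 9 genes under that p lower in FGR. The difference between these families was not tested.

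Clusters of 50 or more members, 12 in all, had a mean level of 66.9%, those of 20 to 49 members 66.3%, those of 5 to 19 members 70.4% and those of 1 to 4 members 68.4%. Level did not follow cluster size in one direction.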
